A study of Mus musculus with 50 samples.

Results

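Hemoglobin and erythroid genes were followed through 50 RNA-seq libraries of mouse brain microglia sorted by flow cytometry. The set is a list of 9 genes drawn up by name: the adult beta-globins Hbb-bs and Hbb-bt, the embryonic beta-like globin Hbb-y, the adult alpha-globins Hba-a1 and Hba-a2, the embryonic alpha-like globin Hba-x, and the red cell genes Slc4a1, Alas2 and Ahsp. Of these 9 genes, 8 were matched by symbol among the 48526 genes of the counts table, and Ahsp was not analysed here. The list names genes of red cells, not the sorted cells.

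The mice carried loxP sites at Hdac1 and Hdac2, genes of histone deacetylases that remove acetyl groups from chromatin. The constitutive model (20 libraries) compared mice with Cx3cr1-Cre, a recombinase driven by a gene of microglia and other myeloid cells, with loxP mice without Cre. They were untreated and were taken at birth (P0), at 2 weeks (14 days) and at 6 weeks (45 days). The inducible model (30 libraries) compared mice carrying CX3CR1-CreERT2, whose recombinase works only after tamoxifen, with loxP mice without Cre. In that model the mothers of knockouts and controls alike received 3 mg tamoxifen, given with progesterone, on embryonic day 13. Sampling began in the embryo, on day 16 (E16), and followed at birth and at both later ages. The inducible model had 4 controls and 3 knockouts at E16, 3 and 4 at P0 and 4 and 4 at each of the later ages. The constitutive model had 4 and 3 at P0, 4 and 2 at 2 weeks and 4 and 3 at 6 weeks. Per the labels, embryos and newborns were killed by decapitation and older animals by perfusion of the vessels through the heart, so a difference between P0 and 2 weeks in age cannot be told apart from one in perfusion. Libraries are named by their animal numbers, and each animal gave 1 library.

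Hemoglobin is a tetramer of alpha-like and beta-like globin chains, each holding a heme group. In mice the first red cells, which come from the yolk sac, make the embryonic chains encoded by Hbb-y, Hbb-bh1 and Hba-x, and red cells from the fetal liver and later the bone marrow make the adult chains. Red cells lose their nucleus as they mature, and young red cells in blood still hold globin mRNA. Alas2 is the erythroid form of the first enzyme of heme synthesis, Slc4a1 is the anion exchanger of the red cell membrane, and Ahsp is a chaperone of free alpha chains.

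The beta-like genes lie together on chromosome 7 and the alpha-like genes on chromosome 11 of GRCm38, in clusters in which the embryonic gene precedes the adult ones. Hbb-y (chr7:103851749-103853216), Hbb-bs (chr7:103826534-103828096) and Hbb-bt (chr7:103812524-103813996) are on the minus strand. Hba-x (chr11:32276400-32278116), Hba-a1 (chr11:32283511-32284465) and Hba-a2 (chr11:32296489-32297298) are on the plus strand. Slc4a1 is at chr11:102348824-102366203 on the minus strand and Alas2 at chrX:150547375-150570638 on the plus strand, and all 8 are annotated as protein-coding. The 120 bases before the RefSeq start of the 6 globin genes and Alas2 are printed because these are the members with a RefSeq promoter entry. Whether these promoters share control was not tested. They are written 5′ to 3′ on the gene's strand (GRCm38.p6, RefSeq), with capitals where a motif was found on either strand. The motifs searched were the CACCC box (GGGTG when reversed), the CCAAT box (ATTGG when reversed), the TATAA box (TTATA when reversed) and the GATAA core (TTATC when reversed), and neighbouring matches may overlap.
Hbb-bs: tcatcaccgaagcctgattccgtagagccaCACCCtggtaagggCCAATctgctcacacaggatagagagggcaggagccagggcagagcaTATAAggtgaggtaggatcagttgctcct
Hbb-bt: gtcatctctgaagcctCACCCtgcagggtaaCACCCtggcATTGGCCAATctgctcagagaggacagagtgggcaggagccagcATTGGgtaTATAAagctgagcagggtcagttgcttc
Hbb-y: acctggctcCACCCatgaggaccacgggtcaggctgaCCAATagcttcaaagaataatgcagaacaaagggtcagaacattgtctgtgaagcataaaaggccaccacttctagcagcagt
Hba-a1: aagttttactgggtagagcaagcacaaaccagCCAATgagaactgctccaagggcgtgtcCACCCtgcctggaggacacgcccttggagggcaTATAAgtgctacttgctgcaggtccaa
Hba-a2: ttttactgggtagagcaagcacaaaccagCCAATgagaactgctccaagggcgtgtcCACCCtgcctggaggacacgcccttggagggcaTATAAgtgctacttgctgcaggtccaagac
Hba-x: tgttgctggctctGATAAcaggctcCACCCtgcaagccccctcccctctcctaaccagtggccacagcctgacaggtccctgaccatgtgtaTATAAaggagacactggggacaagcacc
Alas2: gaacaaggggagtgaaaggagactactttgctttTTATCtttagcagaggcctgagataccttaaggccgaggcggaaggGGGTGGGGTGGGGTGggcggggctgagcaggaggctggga

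The 7 promoters all held CACCC, the core of the box bound by Klf1, at 30 to 111 bases before the start. CCAAT stood in the 4 adult genes and Hbb-y, TATAA in the 4 adult genes and Hba-x, and GATAA, the core of the Gata1 motif, in Hba-x and Alas2. Over 32851 RefSeq promoters, the same window held CACCC in 31.7%, CCAAT in 21.3%, TATAA in 11.8% and GATAA in 10.5%. The windows of Hba-a1 and Hba-a2 differ by a shift of 3 bases in the annotated start. The 2 genes are near copies also in their transcripts: 86.9% of the 50-base stretches of the Hba-a2 transcripts occur in Hba-a1, and 58.3% of those of Hbb-bt occur in Hbb-bs. Hbb-y shared no 50-base stretch with Hbb-bs, and Hba-x none with Hba-a1. The sources used here do not say how reads that match several genes were counted, so the division of counts between Hba-a1 and Hba-a2, and between Hbb-bs and Hbb-bt, is uncertain.

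Library totals ran from 11050277 to 29651179 counts. Levels are given in CPM, the count over the library total on the usual scale. In 3 libraries labelled knockout a targeted gene stood above every control, although reads from the undeleted part of the gene also count. Hdac1 was at 35.7 CPM in the library labelled constitutive knockout 68 at P0 against 11.4 to 13.6 in the controls, and at 92.2 CPM in the library labelled constitutive knockout 380 at 6 weeks against 13.4 to 16.6. Hdac2 was at 191 CPM in the library labelled 68 against 126 to 164, and at 316 CPM in the library labelled inducible knockout 1 at E16 against 133 to 165. Of the other constitutive P0 knockouts, 76 had Hdac2 within those controls, at 137 CPM, and 73 had it just below them, at 124 CPM. So no constitutive P0 knockout stood clearly below its controls in Hdac2. Hdac1 was below its controls in both, at 8.86 CPM in 76 and 10.3 CPM in 73. In constitutive 2-week knockout 89 Hdac2 lay within its controls, at 70.1 CPM against 59.8 to 71.3, and Hdac1 below them, at 15.1 CPM against 17.9 to 19.0. The E16 library labelled 1 also stood apart in its makeup, with summed microglia markers (10 genes) at 6234 CPM where knockouts 3 and 8 had 16143 and 16457. For the members, edgeR results on the groups compared that include these 3 libraries are given without them where that changes the result. List genes and list counts were not fitted without these libraries. Nor was the fit with all 14 groups repeated without them.

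Adult globin RNA made up the bulk of the signal and fell with age. Hbb-bs, Hbb-bt, Hba-a1 and Hba-a2 together stood at 1127 to 1500 CPM in the 4 E16 controls, and at 323, 456 and 687 CPM in the inducible P0 controls. The constitutive P0 controls lay between 573 and 1044 CPM. Per kilobase of exon, the median over E16 controls was 912 CPM for Hbb-bs, 466 for Hbb-bt, 191 for Hba-a1 and 202 for Hba-a2, with Alas2 at 13.8, Hbb-y at 2.08, Slc4a1 at 1.01 and Hba-x at 0.617. Beta exceeded alpha in every E16 and P0 library, where alpha counts were 0.243 to 0.367 of beta counts. In bulk RNA of sorted cells, fewer red cells and less RNA per red cell cannot be told apart.

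**Figure D1:**
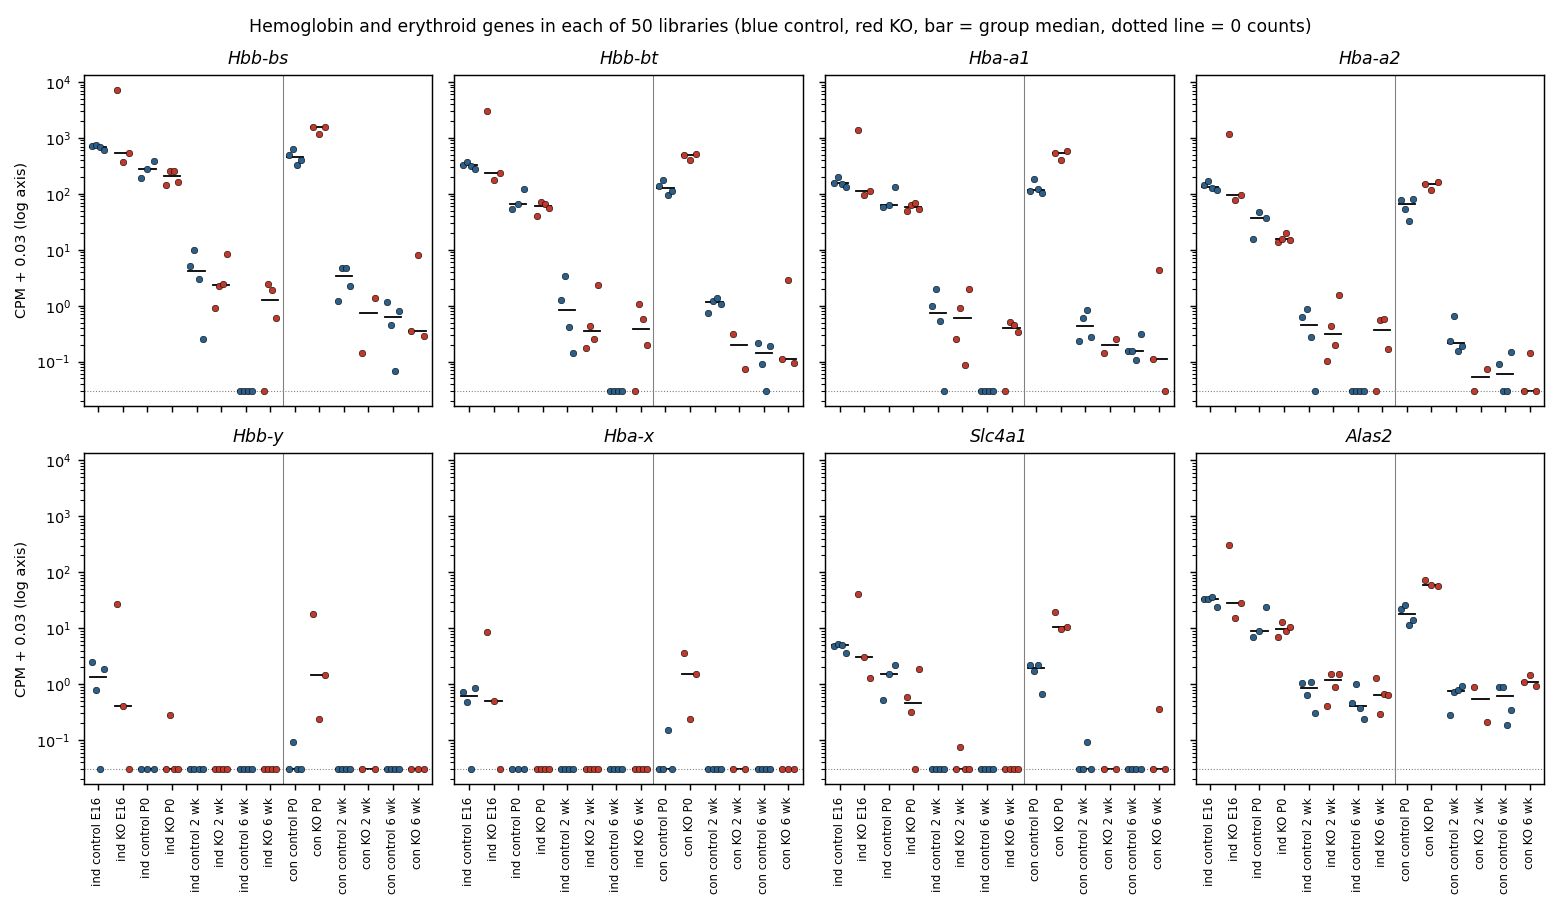
CPM of each member in each of the 50 libraries on a log axis after adding 0.03, by group (ind, inducible; con, constitutive; KO, knockout), with a bar at the group median and a dotted line at 0 counts. Adult globins step down from E16 and P0 to 2 and 6 weeks, the constitutive P0 knockouts lie above their controls, and the library labelled inducible knockout 1 at E16 lies apart at 7312 CPM of Hbb-bs.

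From E16 to P0 in the inducible controls, Hbb-bt was at 334, 374, 321 and 280 CPM at E16 and at 54.3, 65.5 and 121 CPM at P0. The groups did not overlap. It fell by 2.03 ± 0.25 on the log2 scale (SE; edgeR quasi-likelihood adjusted p = 0.0380). This was 1 of the 7 members tested, against 0.0580% of all genes called and 0.0116% called lower. Hbb-bs was at 597 to 762 CPM at E16 and at 196, 280 and 395 CPM at P0, also without overlap, with a log2 difference of -1.25 ± 0.20 that missed the threshold (edgeR adjusted p = 0.0702). DESeq2 called 7 members lower in this comparison and the fit with all 14 groups called none. Leaving out 1 library moved the count between 0 and 4: it was 0 without E16 control 4, E16 control 5 or P0 control 55, 2 without E16 control 2 and 4 without P0 control 56.

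From P0 to 2 weeks the members fell in both sets of controls. In the constitutive controls Hbb-bs went from 495, 632, 323 and 408 CPM to 1.17, 4.72, 4.64 and 2.19 CPM. It fell by 6.88 ± 0.44 on the log2 scale (edgeR adjusted p = 1.62e-06). All 6 members tested fell there, by 4.54 (Alas2) to 7.82 (Hba-a1), where 63.3% of all genes were called and 36.6% called lower. In the inducible controls all 5 members tested were called lower. There Alas2 fell by 3.89 ± 0.52 and Hba-a1 fell by 6.45 ± 0.69 (edgeR), where 54.7% of all genes were called and 32.7% called lower. Hbb-bs ended there at 5.17, 9.90, 3.01 and 0.220 CPM in the 4 controls of 2 weeks, so control 4 was lower than the others. Markers of several cell types moved with this step. Of 8 neuron markers 8 fell in each set of controls, and in the constitutive controls their sum went from 1071 to 3027 CPM at P0 to 2.34 to 8.21 CPM at 2 weeks. Of 8 monocyte markers 8 fell in the inducible and 7 in the constitutive controls, where the sum went from 954 to 1150 CPM to 18.6 to 80.3 CPM. Of 11 neutrophil markers tested 11 fell in the inducible and 3 in the constitutive controls, and of the vascular markers 4 of 8 and 6 of 7 fell. Of 10 microglia markers 9 and 10 rose. The part of these markers in the globin change was not tested.

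At 6 weeks the inducible controls held no count of any adult globin in 4 of 4 libraries. With totals of 14044487 to 27211406, a limit of 3 counts over the group is 0.0386 CPM. At 2 weeks the same controls held 149, 261, 84 and 6 adult globin counts. Only Alas2 passed the count filter in the step from 2 to 6 weeks there, with a log2 difference of -0.61 ± 0.57 (edgeR adjusted p = 0.506), so 0 of 1 member was called where 17.1% of all genes were (4346 of 14025 genes had an unadjusted p under 0.05). Without the filter edgeR called 4 adult globin genes lower, and the fit with all 14 groups called Hbb-bs and Hbb-bt. The constitutive controls still held adult globin RNA at 6 weeks, with 24, 10, 3 and 33 counts. Hbb-bt fell by 3.40 ± 0.65 and Hbb-bs by 2.51 ± 0.66 on the log2 scale from 2 to 6 weeks (edgeR adjusted p = 0.00217 and 0.0183). These were 2 of the 3 members tested, where 17.7% of all genes were called and 8.93% called lower. The fit with all 14 groups called neither, and Hbb-bs was not called without control 78 or 81 of 2 weeks or the 6-week control with 7 counts of Hbb-bs.

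The mix of adult globin counts differed between E16 and P0. Hbb-bt made up 31.6% to 32.9% of the summed Hbb-bs and Hbb-bt counts in the E16 controls and 29.6% to 32.6% in the E16 knockouts. At P0 the share ran from 18.9% to 25.7% over all 14 libraries, so no P0 library reached the lowest E16 library. In the constitutive model the P0 knockouts stood at 24.1%, 25.7% and 24.5%, above the controls at 21.5% to 22.9%. The inducible P0 knockouts (20.3% to 25.6%) and controls (18.9% to 23.5%) overlapped. Exact binomial intervals (Clopper-Pearson, 95%) were narrow, from 29.3% to 29.8% in the deepest E16 library and from 18.1% to 19.8% in P0 control 55, and cover counting error only. These shares are descriptions without a test.

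Hba-a2 made up 45.6% to 47.0% of the summed Hba-a1 and Hba-a2 counts in all 7 E16 libraries. At P0 it fell into separate ranges: 11 libraries lay at 19.8% to 22.7% and 3 at 40.7% to 43.7%. The 3 high libraries were constitutive controls 69 and 74 and inducible control 55, and no knockout was among them. Both ranges occur within a group, so for these near copies the sum is the steadier quantity. The sum of Hba-a1 and Hba-a2 was at 187, 239, 154 and 183 CPM in constitutive P0 controls 69, 70, 71 and 74, which ordered them differently from Hba-a2 alone at 76.3, 54.2, 32.7 and 79.5 CPM.

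**Figure D2:**
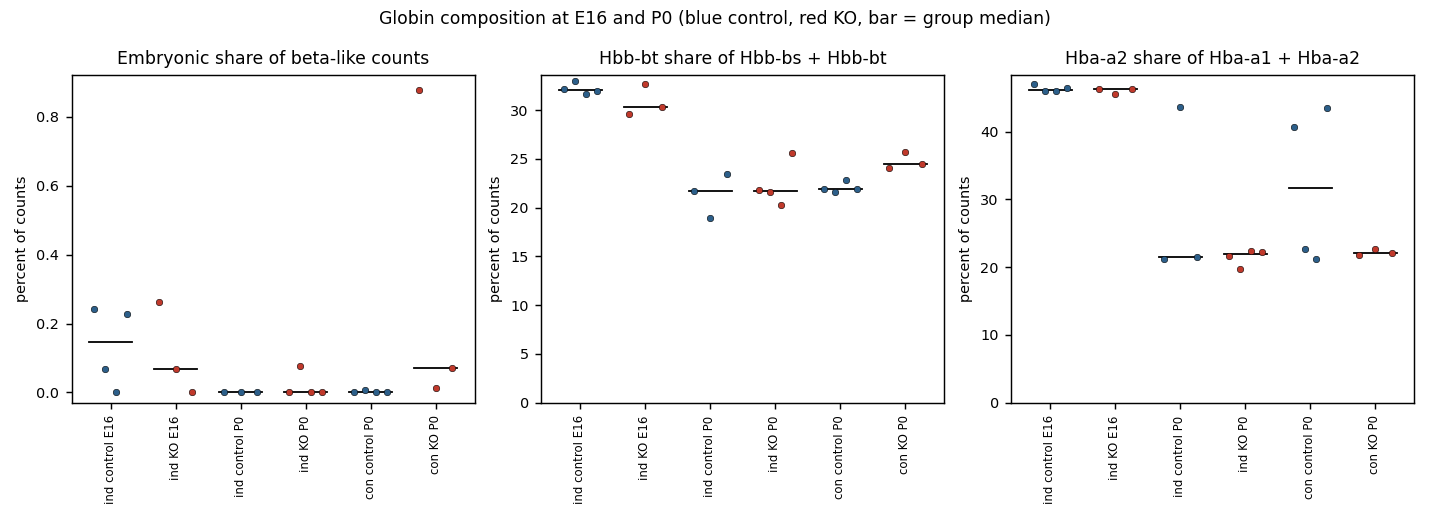
Percent of counts in each E16 and P0 library (blue, control; red, knockout; bar, group median): the embryonic share of beta-like counts, the Hbb-bt share and the Hba-a2 share. The Hbb-bt share separates E16 from P0, 3 P0 control libraries keep an Hba-a2 share of 40.7% to 43.7%, and the embryonic share is highest at 0.879% in the library labelled constitutive knockout 68.

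Embryonic globin RNA was a trace even at E16. Hbb-y had 55, 17, 0 and 30 counts in E16 controls 2, 4, 5 and 6, and Hba-x had 16, 10, 0 and 13. The embryonic share, Hbb-y and Hbb-bh1 over all beta-like globin counts, was 0.242%, 0.0673%, 0% and 0.227% in these libraries. In the E16 knockouts it was 0.262% in the library labelled 1, 0.0684% in knockout 3 and 0% in knockout 8. Taken as a limit of 3 counts, the 0 of control 5 allows a share of up to 0.0151% and that of knockout 8 one of up to 0.0168%. The upper ends of their exact intervals are 0.0186% and 0.0207%. Both libraries without Hbb-y also lacked Hba-x, and they still had 13564 and 12412 counts of Hbb-bs.

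At P0 embryonic globin counts were rare outside the constitutive knockouts. The 7 P0 controls of both models held 1 count of Hbb-y in all, and 1 of the 4 inducible knockouts held 7. In the constitutive P0 knockouts Hbb-y had 310 counts in the library labelled 68, 3 in knockout 73 and 24 in knockout 76, against 0, 1, 0 and 0 in the controls. Hba-x had 61, 3 and 25 counts in the same knockouts against 0, 0, 2 and 0. The embryonic share was 0.879% (exact interval 0.785% to 0.982%) in the library labelled 68, 0.0128% in knockout 73 and 0.0700% in knockout 76, so most embryonic counts came from 1 library. Both genes failed the count filter there. In the fit with all 14 groups, which kept them, both were called higher, while the fit without a filter called Hba-x. At 2 and 6 weeks no library held a count of Hbb-y or Hba-x, where totals of 0 to 276 adult globin counts set the limit. Hbb-bh0 and Hbb-bh2 were at 0 in all 50 libraries, and Hbb-bh1 reached at most 7 counts.

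In the constitutive model at P0, globin and red cell genes rose in the knockouts. Hbb-bs was at 495, 632, 323 and 408 CPM in the controls and at 1572, 1182 and 1592 CPM in the knockouts. Every knockout lay above every control, and Hbb-bs rose by 1.30 ± 0.21 on the log2 scale (edgeR adjusted p = 6.35e-04). Hbb-bt went from 139, 173, 95.8 and 115 CPM to 498, 410 and 516 CPM and rose by 1.51 ± 0.18 (edgeR adjusted p = 1.04e-04). These beta-globins did not overlap between the groups.

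Hba-a1 stood at 111, 185, 121 and 103 CPM in the constitutive P0 controls and at 548, 403 and 577 CPM in the knockouts, and rose by 1.63 ± 0.20 (edgeR adjusted p = 1.13e-04). Hba-a2 was at 153, 118 and 164 CPM in the knockouts, above the 32.7 to 79.5 CPM of the controls, and rose by 0.91 ± 0.26 (edgeR adjusted p = 0.0168). Its controls include the 2 libraries with a high Hba-a2 share, and it missed the threshold without knockout 76 (0.79 ± 0.31, adjusted p = 0.0712), without the count filter and in the fit with all 14 groups. Over single left-out libraries its adjusted p ran from 0.0108 to 0.0712. The alpha sum, which does not depend on that division, was at 701, 522 and 741 CPM in the knockouts.

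Slc4a1 was at 2.15, 1.70, 2.15 and 0.643 CPM in the controls and at 19.5, 9.82 and 10.5 CPM in the knockouts. It rose by 2.62 ± 0.42 on the log2 scale (edgeR adjusted p = 6.58e-04). Alas2 was at 21.7, 25.6, 11.3 and 13.9 CPM in the controls and at 72.7, 60.3 and 57.3 CPM in the knockouts, and rose by 1.46 ± 0.25 (edgeR adjusted p = 9.50e-04). In all, 6 of the 6 members tested were called, all higher, where 41.6% of all genes were called and 21.4% called higher, with a median log2 difference of 0.04 over all genes. All 6 were also called without the library labelled 68, with Slc4a1 at 2.22 and Hbb-bs at 1.23. Hbb-bs was not called in the fit with all 14 groups (1.51, same direction).

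Other cell types' markers moved with these genes, and their part in the result was not tested. In the constitutive P0 knockouts the microglia sum was 1018 to 3902 CPM against 21303 to 24657 in the controls, and 10 of 10 microglia markers fell. The neutrophil sum (12 genes) was 7701 to 11908 CPM against 693 to 1655, and 12 of 12 markers rose. Monocyte markers (8 genes) summed to 2191 to 3372 CPM against 954 to 1150, neuron markers (8 genes) to 4066 to 5951 against 1071 to 3027, and vascular markers (8 genes) to 309 to 385 against 107 to 164. Lymphocyte markers (8 genes) summed to 87.9 to 133 CPM against 89.6 to 115, and of 7 tested 4 rose and 1 fell. Of 9 platelet markers tested 2 rose and 2 fell. Their sum, 297 to 413 CPM against 338 to 537, was mostly Pf4, a platelet chemokine, at 276 to 386 CPM against 324 to 525. No list had a marker at 0 throughout these groups.

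**Figure D3:**
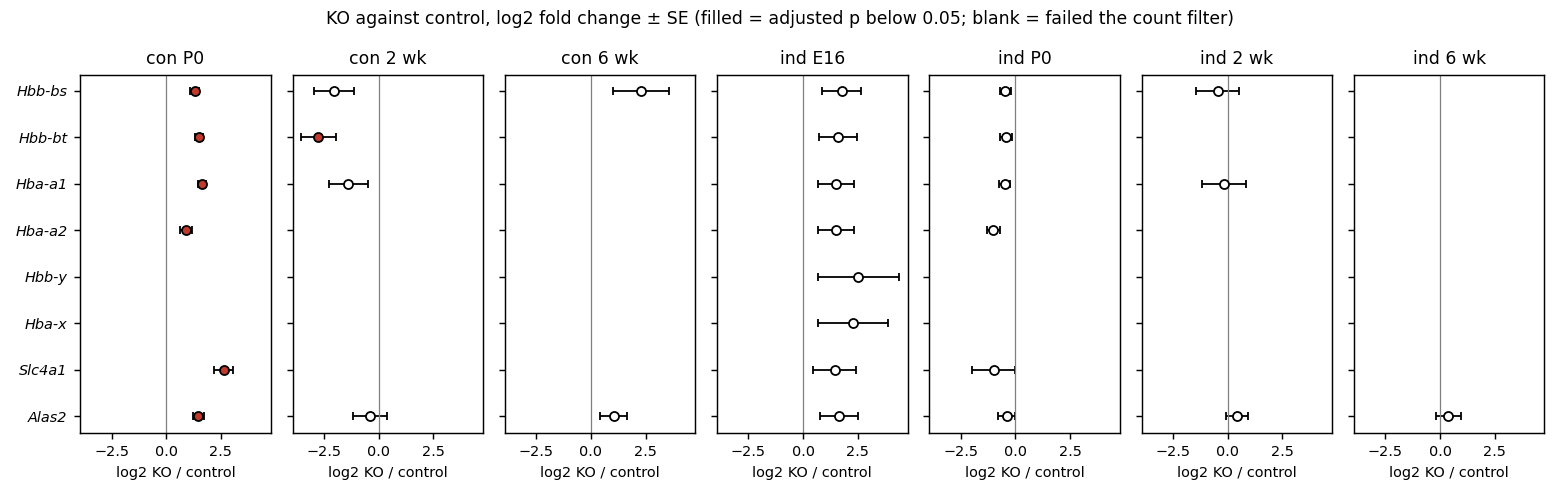
Log2 fold change of knockout over control with its SE for each member in the 7 knockout comparisons; filled points passed an adjusted p of 0.05, and blanks failed the count filter. All 6 points at constitutive P0 are filled and to the right of 0, 1 point is filled at constitutive 2 weeks (Hbb-bt, -2.75), and none is filled in the inducible model.

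Among the genes on the red cell lineage lists, 5 with at most 1 count in each constitutive P0 control were higher in the knockouts. Others on these lists fell, among them Epor, Lmo2 and Tal1, which are given below. Gata1, the master regulator of red cell and platelet precursors, had 0 counts in each of the 4 controls and 35, 25 and 18 in the knockouts. Car1, a carbonic anhydrase of erythroid cells, had 0 counts in the controls and 103, 35 and 41 in the knockouts. Cldn13, a claudin of mouse erythroid cells, had 0 counts in the controls and 90, 24 and 39 in the knockouts. With the limit of 3 counts over the control group in place of 0, these were at least 31.8-fold higher for Gata1, 73-fold for Car1 and 62.4-fold for Cldn13. Without the library labelled 68, an alternative chosen after seeing the data, the bounds were 27.0-fold, 47.7-fold and 39.5-fold. Hemgn, which is made in blood precursors, had 61, 37 and 73 counts against 0, 1, 1 and 0, and Gfi1b, a repressor of that lineage, had 32, 59 and 24 against 0, 0, 0 and 1. These 5 genes passed the count filter only through the knockouts, so their edgeR calls are not used as support. Gata1 and Tal1 here, and Gata1, Car1, Hemgn and Klf1 in the inducible comparisons, were singled out after their values were seen.

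**Figure D4:**
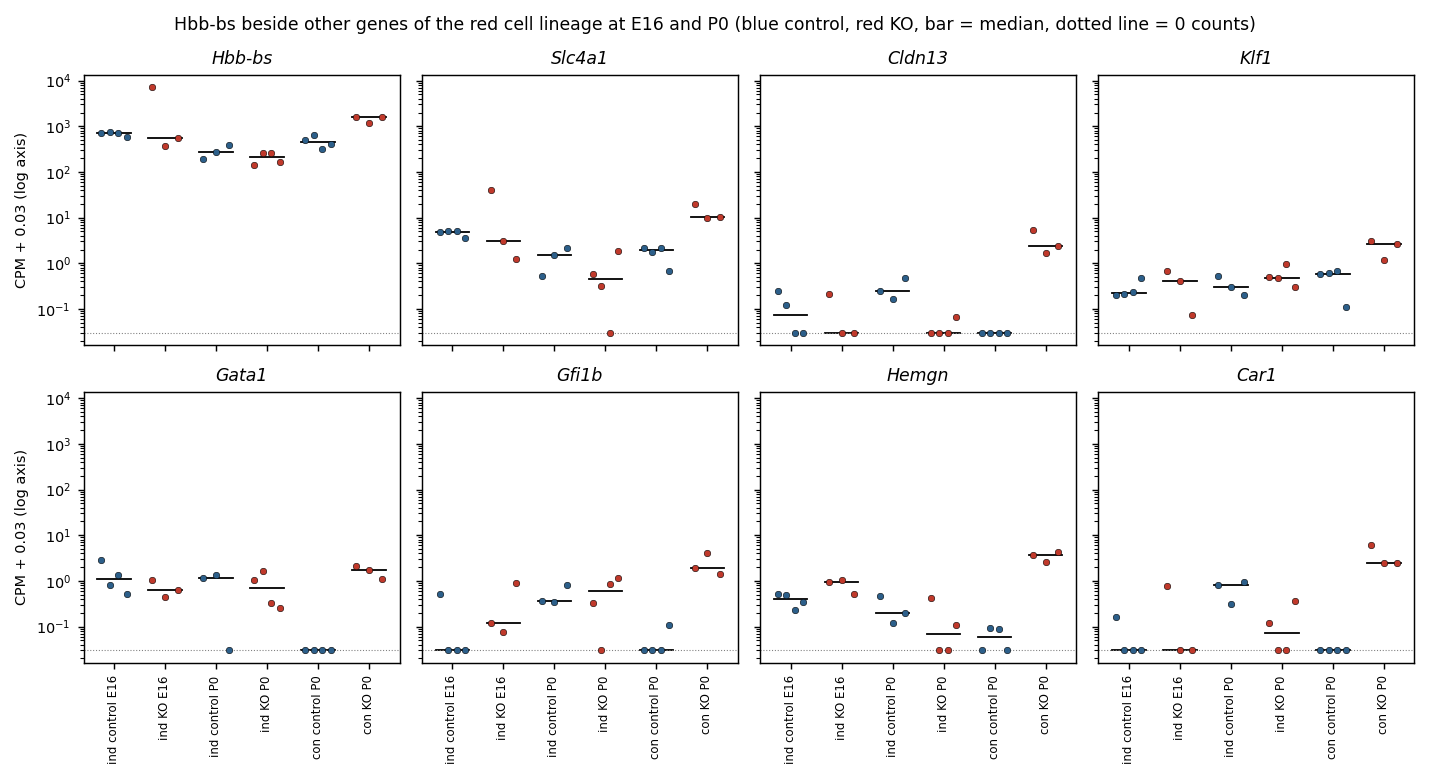
CPM after adding 0.03, on a log axis, of Hbb-bs and 7 other genes of the red cell lineage in each E16 and P0 library (blue, control; red, knockout; bar, median; dotted line, 0 counts). Hbb-bs is high in every library, whereas Cldn13, Gata1 and Car1 are at 0 in all constitutive P0 controls and above 1 CPM in all constitutive P0 knockouts.

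The list counts that follow include these 5 genes. Klf1, Rhd and Tspo2 of the lists, named after their values were seen, also passed the count filter through the knockouts. In a control they held at most 11, 11 and 4 counts, and in a knockout at least 17, 37 and 28. The list counts are therefore partly set by the filter and are not used as support. In this comparison 41.6% of all genes were called, 21.4% higher and 20.2% lower. By list, 9 of the 13 tested genes of the red cell membrane and skeleton rose in the constitutive P0 knockouts, 1 fell and 3 did not pass, with a median log2 difference of 1.22 against 0.04 over all genes. Beside Slc4a1 and Cldn13, Tfrc, the transferrin receptor, rose by 1.20 ± 0.19 and Add2, an adducin also made by neurons, by 1.30 ± 0.21 (edgeR). The gene that fell was Epor, the erythropoietin receptor, by 1.58 ± 0.27, and it was named after its value was seen. Of 11 transcription factors 7 rose and 2 fell. Nfe2, which is also made in neutrophils and platelet precursors, rose by 2.08 ± 0.24 and Bcl11a, a repressor of embryonic globin also made by neurons, by 1.35 ± 0.20. Lmo2 fell by 1.89 ± 0.18 and Tal1 by 1.91 ± 0.35, and both were well expressed in control microglia libraries, with 3081 to 4546 counts of Lmo2 in each constitutive P0 control.

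Of 13 tested enzymes and other erythroid genes 7 rose and 2 fell, led by Car2, a carbonic anhydrase of many cell types, at 2.10 ± 0.19. In heme synthesis 5 of 13 genes were called, a share near that of all genes: 1 rose (Alas2), 4 fell and 8 did not pass, with a median log2 difference of -0.20. Alas1, the form of the first enzyme used outside red cells, fell by 0.76 ± 0.13, and Ppox, a late enzyme of the pathway, by 0.72 ± 0.16. Tmem14c, a carrier of heme precursors in mitochondria, fell by 0.63 ± 0.14. Among 8 tested genes of heme and hemoglobin uptake and breakdown 1 rose and 4 fell. Hp, the plasma hemoglobin binder haptoglobin, also made by neutrophils, rose by 2.51 ± 0.24. Cd163, its macrophage receptor, fell by 1.79 ± 0.35 and Slc40a1, the iron exporter ferroportin, by 1.47 ± 0.17.

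The inducible knockouts did not show this rise at P0. Hbb-bs was at 196, 280 and 395 CPM in the controls and at 145, 258, 255 and 165 CPM in the knockouts, and the groups overlapped. Of 6 members tested edgeR called 0, where 10.4% of all genes were called and 4823 of 17573 had an unadjusted p under 0.05. The log2 differences ran from -1.01 ± 0.30 for Hba-a2 (edgeR adjusted p = 0.0507) to -0.39 ± 0.39 for Alas2. Hba-a2 was at 15.5, 48.1 and 36.7 CPM in controls 54, 55 and 56 and at 13.6 to 19.8 CPM in the knockouts, and control 55 is one of the libraries with a high Hba-a2 share. It was called lower by DESeq2, with RLE scaling, without the count filter and without control 54, and by no other alternative. Slc4a1 had 13, 8, 0 and 48 counts in the knockouts against 9, 33 and 39.

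The difference between the models at P0 was itself tested. The constitutive knockout effect exceeded the inducible one by 1.8 ± 0.36 on the log2 scale for Hbb-bs and by 1.99 ± 0.35 for Hbb-bt (edgeR adjusted p = 0.00211 and 0.00102). It exceeded it by 2.16 ± 0.36 for Hba-a1, 1.97 ± 0.45 for Hba-a2, 3.68 ± 1.09 for Slc4a1 and 1.89 ± 0.50 for Alas2. All 6 members tested were called, where 30.9% of all genes were called and 14.0% called higher. Slc4a1 was not called without the library labelled 68 or without inducible control 56 (adjusted p = 0.0522 and 0.0520, range over left-out libraries 0.00250 to 0.0522), and Hbb-bs and Hbb-bt were not called in the fit with all 14 groups. This test uses the libraries of both P0 comparisons and so is not independent of them, and the models differ in tamoxifen as well as in Cre.

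Few genes of the lineage lists were called at inducible P0, where 6.81% of all genes were called higher, and most of the counts lie near that share. Among the red cell membrane genes 0 of 12 tested were called and among the transcription factors 1 of 11, Bcl11a (0.74 ± 0.21). Gata1 had 24, 45, 7 and 6 counts in the knockouts and 20, 28 and 0 in the controls, so here the controls held it as well. Car1 had 2, 0, 0 and 9 counts in the knockouts and 14, 6 and 16 in the controls. Urod of heme synthesis rose by 0.83 ± 0.15, and Car2 by 1.29 ± 0.23 and Ube2l6 by 0.79 ± 0.21 among the enzymes. The microglia sum was 9431 to 13058 CPM in these knockouts against 21427 to 23118 in the controls, the neutrophil sums overlapped (1387 to 6099 against 1109 to 3882), and the neuron sum was 283 to 608 against 494 to 1033. Their part in the globin values was not tested.

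At E16 a single library set the comparison of inducible knockouts with controls. Hbb-bs was at 706, 762, 695 and 597 CPM in controls 2, 4, 5 and 6, at 371 and 547 CPM in knockouts 3 and 8, and at 7312 CPM in the library labelled knockout 1. All 8 members were tested and edgeR called 0, where 0.00% of all genes were called. DESeq2 called 456 genes higher and 425 lower, the fit with all 14 groups called 564 higher and 1012 lower, and neither called a member. An unadjusted p under 0.05 was found in edgeR for 2306 of 17594 genes. The log2 differences were 1.44 (Slc4a1) to 2.53 (Hbb-y), with edgeR adjusted p from 0.454 to 0.596.

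Without the library labelled 1 the sign turned for every member at E16, to -0.68 ± 0.16 for Hbb-bt and -0.62 ± 0.18 for Hbb-bs, with edgeR adjusted p = 0.0615 and 0.101 (range over left-out libraries 0.0615 to 0.662 for Hbb-bt). No member was then called, and 638 of 17973 genes were. In that library the adult globins summed to 12963 CPM, or 1.30% of its counts, where knockouts 3 and 8 had 725 and 993 CPM. Its genes of early precursors were not raised alike: Hemgn was at 0.905 CPM against 1.04 and 0.485, Gata1 at 0.995 against 0.425 and 0.617, and Klf1, which turns on adult beta-globin, had 7 counts against 8 and 1. Its neuron sum was 3803 CPM against at most 709 in the others, and its part in the difference was not tested.

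At 2 weeks Hbb-bt was lower in both constitutive knockouts than in their controls, on few counts. It was at 0.712, 1.21, 1.32 and 1.06 CPM in the controls and at 0.286 and 0.0442 CPM in knockouts 80 and 89, or 5 counts and 1 count. The groups did not overlap, and Hbb-bt fell by 2.75 ± 0.78 on the log2 scale (edgeR adjusted p = 0.0184). It was the 1 called of 4 members tested, where 42.1% of all genes were called and 17.8% called lower. Nothing about the members as a set is read from this count. The call was lost without knockout 89 (-1.98), whose Hdac2 lay within its controls, and in the fit with all 14 groups. Without knockout 89 Hbb-bs was called in its place at -4.81, and DESeq2 called both. Hbb-bs itself had 2 and 30 counts in the knockouts against 23 to 82 in the controls, with a log2 difference of -2.04 ± 0.91 (edgeR adjusted p = 0.106). These controls are shared with the age steps above.

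Genes of heme handling moved the other way in the same constitutive 2-week knockouts. Of 8 tested uptake and breakdown genes 7 rose and 0 fell, where 24.4% of all genes were called higher, with a median log2 difference of 1.53 against 0.00 over all genes. Hmox1, which breaks down heme, rose by 1.75 ± 0.14 and Cd163 by 3.68 ± 0.32 (edgeR). Spic, a factor of iron-recycling macrophages, had 117 and 109 counts against 4, 0, 0 and 0. The 8 tested genes include Spic, which passed the count filter only through the knockouts, so its edgeR result is not used as support. Of 13 heme synthesis genes 6 rose and 2 fell, of 8 transcription factors 4 rose and 2 fell, of 9 enzymes 4 rose and 1 fell, and of 8 membrane genes 0 rose and 2 fell. These 4 counts are given beside the 24.4% of all genes called higher and 17.8% called lower, and nothing is read from them. Gata1 had 36 and 123 counts in the knockouts and 0, 0, 6 and 0 in the controls. Gata1 passed the filter only through the knockouts. In knockouts 80 and 89 Gfi1b had 6 and 73 counts, Car1 14 and 0, Hemgn 0 and 10 and Cldn13 0 and 0. No control held more than 1 count of any of these, and they are named here after their values were seen. Adult globin counts in the same knockouts were 9 and 37. Of 6 platelet markers tested 2 rose and 2 fell, and their sum of 662 and 708 CPM was 652 and 697 CPM of Pf4. The neutrophil sum was 18773 and 53512 CPM against 120 to 878 in the controls, and the part of these markers was not tested.

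The inducible knockouts at 2 weeks did not differ detectably in the members. Hbb-bs had 12, 50, 43 and 153 counts in the knockouts and 97, 161, 61 and 4 in the controls, and the groups overlapped. Of 3 members tested edgeR called 0, where 2.25% of all genes were called and 2214 of 13921 had an unadjusted p under 0.05. No other tool or scaling called any. Cd163 rose by 2.19 ± 0.43 and was the 1 called gene of 7 tested for heme handling, where 1.11% of all genes were called higher.

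At 6 weeks single libraries again carried the signal. In the constitutive model adult globins had 276 counts in the library labelled knockout 380 and 6 and 5 in the other knockouts, against 24, 10, 3 and 33 in the controls, so that library stood apart. Of 2 members tested edgeR called 0, where 12% of all genes were called and 3439 of 14428 had an unadjusted p under 0.05, and no other tool called any. Hbb-bs differed by 2.29 ± 1.27 (edgeR adjusted p = 0.343) and by -1.01 ± 1.07 without the library labelled 380 (adjusted p = 0.719, range over left-out libraries 0.192 to 0.719). In that library Hba-a2 had 2 counts beside 79 of Hba-a1. Among 8 tested heme handling genes 4 rose and 0 fell, where 6.76% of all genes were called higher, with Hmox1 at 0.76 ± 0.15, Cd163 at 2.48 ± 0.52 and Hp at 3.00 ± 0.68. The other, Spic, had 110 to 237 counts against 0 to 8 in the controls. It passed the count filter only through the knockouts, so its call is not used as support. The neutrophil sum was 2313 to 5157 CPM against 422 to 721.

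In the inducible model at 6 weeks, adult globin counts were 0, 84, 81 and 35 in knockouts 4, 6, 9 and 12 and 0 in all 4 controls. With the limit of 3 counts over the control group, Hbb-bs was at least 31.8-fold higher over the knockouts, although knockout 4 overlapped with the controls at 0. Only Alas2 passed the count filter, and edgeR called 0 of 1 member, where 0.0633% of all genes were called and 626 of 14217 had an unadjusted p under 0.05. Without the filter the 4 adult globins were tested and none was called. Without knockout 4, the one with no globin count, Hbb-bs passed the filter through the other knockouts, with an edgeR adjusted p = 0.0490, against 0.645 without the filter and 0.879 with all 14 groups. Since that fit leaves out the library that overlaps with the controls, its call is not used as support.

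Alas2 kept a narrower ratio to adult globin than Slc4a1 at E16 and P0. For every 1000 adult globin counts these libraries held 19.3 to 36.1 counts of Alas2 but 0 to 7.05 of Slc4a1. At 6 weeks the inducible controls held 6, 27, 6 and 4 counts of Alas2 beside no adult globin count at all. Alas2 shares exon bases with Apex2, a DNA repair gene on the opposite strand, and with Mir3620. The overlap sums to 372 over their annotated exons, where a base in several exons counts each time. These libraries do not mark strand, so the low counts of Alas2 at 2 and 6 weeks may belong to Alas2 or Apex2. Apex2 had 117 to 273 counts in those 6-week controls. Slc4a1 was nearly silent after P0: of the 29 libraries of 2 and 6 weeks, only 3 held a count, with 6 in the library labelled constitutive knockout 380 and 1 in each of the others. At E16 and P0 it was at 0 in 1 library, inducible P0 knockout 53.

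Across all 50 libraries the ranks of Hbb-bs and Hbb-bt CPM had a Spearman correlation of 0.982. Hba-a1 stood at 0.978 with Hbb-bs, Hba-a2 at 0.974, Slc4a1 at 0.876, Alas2 at 0.865, Hbb-y at 0.649 and Hba-x at 0.621. Genes most like Hbb-bs among 14859 genes with at least 1 CPM in at least 3 libraries were Stmn4 (0.926), Ctxn1, Nnat, Tceal3, Robo1, Rgs5, Nsg2 and Ina (0.906). These are descriptions over libraries that share age, library depth and preparation, and the order among them rests on small differences.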

How the data were processed

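Expression in 50 libraries was read from the deposited table of raw integer counts per gene. Per the submitters' processing notes CASAVA 1.8.2, STAR 2.5.2b, featureCounts 1.5.1 of Subread, limma 3.28.21 and GRCm38 were used by the authors. Neither the annotation release nor the handling of multi-mapping reads is stated in those sources. Total RNA was amplified by PCR from a small input and tagmented without strand marking, per the labels. The authors' CPM and log2 tables were not used. CPM here is the count over the library total.

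Fits were made with edgeR 4.0.16 in R 4.3.3 on the groups compared and no others, with filterByExpr, TMM scaling, robust quasi-likelihood fit, Benjamini-Hochberg adjustment over all genes tested and a threshold of 0.05. The SE is the log2 difference over the square root of F. The 13 comparisons are 7 of knockout with control, 5 age steps of controls and 1 difference between the models at P0. Control libraries enter both knockout and age comparisons. DESeq2 1.42.0, limma voom 3.58.1, RLE scaling, no filter, all 14 groups in 1 fit, globins left out of totals and each library left out in turn were tried, and the fit was tested on simulated data. Nothing in the labels ties animals to litters, so p-values measure the spread between these animals.

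Members and gene lists were chosen with earlier results of these data known. Named were the members, up to 4 called genes of each list with the smallest adjusted p per comparison, list genes at 0 in all libraries and the 10 genes most like Hbb-bs, of which 8 are reported here. Symbols came from GENCODE vM21 (48058 of 48526 genes matched), and promoters from RefSeq GRCm38.p6, where Slc4a1 had no entry. Library totals of 11050277 to 29651179 make 1 count worth 0.0337 to 0.0905 CPM. Intervals and limits cover counting error only, since PCR copies were not removed by molecular identifiers.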

Additional observations from a re-analysis of the deposited data

Results flagged for a closer look

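The effect of the knockout at P0 differed between the models for the 6 members tested, by the test of that difference (edgeR). Constitutive minus inducible, on the log2 scale, it was 1.99 for Hbb-bt, 1.8 for Hbb-bs, 2.16 for Hba-a1, 1.97 for Hba-a2, 3.68 for Slc4a1 and 1.89 for Alas2. Within the constitutive model Hbb-bt went opposite ways by age. Every knockout lay above every control at P0 (1.51) and below every control at 2 weeks (-2.75). The difference of 4.27 was not tested. The second value rests on 6 counts in 2 knockouts and was not called in the fit with all 14 groups.

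Over 52 sets of 4 values checked, each a gene or a share within a group of 4 libraries, 4 held a value far from the others. The sets reuse the same libraries, and a share at 0 in all other libraries is flagged by construction. So this number is not set against chance. Inducible 2-week knockout 16 held 2.32 CPM of Hbb-bt against 0.149 to 0.405 in the other knockouts. Constitutive 2-week control 78 held 0.633 CPM of Hba-a2 against 0.126 to 0.203. The embryonic share was 0.0776% in inducible P0 knockout 49 and 0.00783% in constitutive P0 control 70, against 0 in the others, and the latter is 1 count.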

How the results depend on the processing

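Of 348 member results under other tools, scalings and filters 327 kept their side of the threshold, 10 lost and 11 gained a call. With 1 library left out these numbers were 432, 11 and 7 of 450. No called value changed sign, whereas the uncalled E16 values did without the library labelled knockout 1. The count of members called changed by more than 1.5 times as follows. At constitutive 2 weeks it was 1, against 2 with DESeq2 and 0 with all 14 groups in 1 fit. At inducible P0 it was 0, against 1 with DESeq2, with RLE scaling and without the filter. For E16 to P0 it was 1, against 7 with DESeq2 and 0 with all 14 groups. For 2 to 6 weeks it was 0 in the inducible controls, against 4 without the filter and 2 with all 14 groups, and 2 in the constitutive controls, against 0 with all 14 groups. With each library left out, the counts ran from 0 to 1 at inducible P0, 0 to 1 at inducible 6 weeks, 0 to 4 for E16 to P0, 0 to 1 for inducible and 1 to 2 for constitutive controls from 2 to 6 weeks. The median summed adult globin level of the constitutive P0 knockouts was 2771 CPM by library total and 2338 with TMM-scaled totals. The causes were not tested, except that fewer libraries or more genes enter some fits by construction. No paired analysis was possible because animal numbers name different animals and the groups compared share fewer than 2 numbers. At 2 and 6 weeks, totals of 0 to 276 adult globin counts limit every statement on shares and folds.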
